A study of Homo sapiens with 6 samples.

Results

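EGF family ligands, the ERBB receptors they bind and the receptor inhibitor ERRFI1 were examined in human hepatocellular carcinoma cells that overexpressed TKT, the gene of the pentose phosphate pathway enzyme transketolase. The members were chosen by a written list of 10 gene symbols, drawn up with the fold changes of this contrast already known, so their values are given as a description, and no test of them is used as a result. Of the 10 symbols, 9 matched a row among the 22077 genes of the count table, and TGFA was not analysed here. RNA from 3 samples labelled as overexpressing, with a TKT plasmid by the study's methods, and 3 control samples labelled wild type was sequenced as paired reads. The sample labels spell the cell line Hu7, whereas the study's text names Huh7 for this experiment in one place and HCCLM3 in another. Both are established human hepatocellular carcinoma lines, and all samples carry the same line label. The control is called that throughout. Its sample titles begin with VC, and what plasmid it received was not given in the labels. Replicates are labelled as separate biosamples, so p-values measure only the spread between these samples, which may be technical.

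Ligands of the EGF family are made as membrane-anchored precursors and are released by metalloproteases at the cell surface. They bind EGFR, ERBB3 or ERBB4, which pair with each other or with ERBB2, a receptor without a known ligand of its own, and ERBB3 has little kinase activity. In liver, EGFR signalling takes part in regeneration, and AREG and HBEGF are known to be induced after injury.

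TKT was read first as a check of the labels. Its normalized level in CPM, that is counts divided by a TMM-scaled library total, was 497, 469 and 515 in the control libraries and 9400, 9550 and 9390 in the TKT overexpression libraries. The fold change was 19.1 (log2 fold change 4.26, standard error 0.04), and every library matched its label. Library totals were 31618541, 30148788 and 33815829 counts in control and 37096156, 31188058 and 32406994 counts on TKT overexpression.

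Of the 12 hepatocyte markers, 11 passed the expression filter, and AFP was the most abundant with a mean of 2641 FPKM (fragments scaled by gene length and library size). APOB, a defining hepatocyte gene, was the exception, with at most 6 counts in any library. FGB was higher (log2 fold change 0.50, edgeR adjusted p = 8.85e-10) and HNF4A lower (-0.15, adjusted p = 0.00720), both named after their values were seen. Of the fibroblast markers, PDGFRB was the most abundant at 0.236 FPKM, and of the endothelial markers PECAM1 at 2.31 FPKM. Among leukocyte markers CD68 was at 0 counts in all control libraries and at most 2 counts in the others, PTPRC was not analysed here, and LYZ was the most abundant at 78.0 FPKM. APOB and CD68 are usually detected in hepatoma lines such as Huh7, so their counts are unexpected, and whether they reflect expression was not tested. Summed over the 5 leukocyte markers with a row, levels were 88.6, 94.6 and 94.0 FPKM in control and 73.4, 70.3 and 76.1 FPKM on TKT overexpression. Most of that sum was LYZ alone, with means of 87.3 FPKM in control and 68.7 FPKM on TKT overexpression. CD14 had means of 4.91 and 4.47 FPKM with overlapping groups, and CD3E, CD79A and CD68 had at most 18 counts in any library. LYZ fell, with a log2 fold change of -0.35 (edgeR quasi-likelihood test, adjusted p = 1.71e-05), and its part in the results below was not tested. In these bulk samples fewer cells of a type and less RNA per cell cannot be told apart.

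AREG (amphiregulin), EREG (epiregulin) and BTC (betacellulin) lie with EPGN in a gene cluster on chromosome 4, a feature that the choice of members did not use. In GENCODE 29 on GRCh38 the cluster runs from chr4:74308473-74794686, spans 486 kb and holds 4 protein-coding genes, all of this family. AREG lies at chr4:74445134-74455009 on the plus strand, EREG at chr4:74365143-74388751 on the plus strand, and BTC at chr4:74744759-74794686 on the minus strand. HBEGF (heparin-binding EGF-like growth factor) lies apart at chr5:140332843-140346631 on the minus strand.

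Promoter windows are shown for these ligands because most of them had higher values together on TKT overexpression. They come from RefSeq on GRCh38.p14, where 8 of the 10 members had an entry. Each window held 300 bases, 250 of them before the gene's start in RefSeq, and the 250 are printed in the direction of the gene. Both strands of all 300 bases were searched for 6 short motifs, whose letters are given with each result, and capitals mark the matches.
AREG: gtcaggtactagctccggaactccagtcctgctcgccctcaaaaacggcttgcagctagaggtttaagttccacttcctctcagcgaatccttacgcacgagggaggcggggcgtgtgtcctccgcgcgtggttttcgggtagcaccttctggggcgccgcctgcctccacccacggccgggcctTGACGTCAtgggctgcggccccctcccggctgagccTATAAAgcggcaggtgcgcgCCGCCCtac
EREG: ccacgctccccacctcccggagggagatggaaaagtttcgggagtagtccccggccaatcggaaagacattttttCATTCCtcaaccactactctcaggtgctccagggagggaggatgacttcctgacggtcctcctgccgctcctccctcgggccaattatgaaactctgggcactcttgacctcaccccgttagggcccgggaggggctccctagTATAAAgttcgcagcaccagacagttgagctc
HBEGF: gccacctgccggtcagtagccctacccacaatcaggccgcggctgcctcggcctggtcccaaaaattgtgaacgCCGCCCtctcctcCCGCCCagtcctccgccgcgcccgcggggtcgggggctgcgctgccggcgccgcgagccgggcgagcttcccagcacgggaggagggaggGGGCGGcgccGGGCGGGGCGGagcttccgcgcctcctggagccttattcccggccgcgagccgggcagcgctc
BTC: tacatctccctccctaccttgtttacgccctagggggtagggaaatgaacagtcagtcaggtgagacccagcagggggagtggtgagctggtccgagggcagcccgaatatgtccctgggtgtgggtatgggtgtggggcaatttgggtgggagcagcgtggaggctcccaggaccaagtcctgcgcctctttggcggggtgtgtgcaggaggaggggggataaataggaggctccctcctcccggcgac
The windows printed are chr4:74444886-74445135 (plus strand), chr4:74364895-74365144 (plus strand), chr5:140346604-140346853 (minus strand) and chr4:74794524-74794773 (minus strand), in the order given. The RefSeq starts lie inside the GENCODE genes placed above, by 2 bases for AREG and for EREG, 28 for HBEGF and 163 for BTC. Only those numbers of bases in each printed stretch are within the gene as placed there. All distances below are from the RefSeq start. AREG had a cyclic AMP response element, searched as TGACGTCA, 65 bases before its start, a motif found in 1.85% of 35116 promoter windows. AREG and EREG each had a TATA box, with the letters TATAAA, 29 and 32 bases before the start. These letters stood anywhere on either strand in 11.5% of windows, and the share at a like position was not counted. EREG also had the core of a TEAD site, GGAATG on either strand, 175 bases before the start, present in 14% of windows. HBEGF had 5 GC boxes, spelled GGGCGG, of which 2 overlapped by 1 base, and 45% of windows had at least 1. AREG had 1 GC box, 9 bases before the start. BTC had no match in the printed stretch, and its only GC box lay past the RefSeq start. No AP-1 site, searched as TGACTCA, was in these 4 windows, and 4.95% of all windows had one. No E-box, searched as CACGTG, was in them either, and 7.26% of all windows had one. A match of letters says nothing about binding by a factor.

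AREG, a ligand of EGFR, had 3.91, 4.90 and 4.11 CPM in control and 10.8, 8.56 and 9.46 CPM on TKT overexpression. Every TKT overexpression library lay above every control library. The means were 4.31 ± 0.524 and 9.61 ± 1.14 CPM (SD, n = 3 each), and the log2 fold change was 1.16 (standard error 0.15). With limma on log2 FPKM it was 0.92 when 1 was added to each level as a pseudocount, and 1.13 with 0.1. A pseudocount near or above the level of a gene shrinks its log2 fold change.

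HBEGF had 1.78, 2.30 and 2.12 CPM in control and 4.48, 5.32 and 4.68 CPM on TKT overexpression. These groups did not overlap either. The log2 fold change was 1.22 (standard error 0.20), from means of 2.07 ± 0.264 and 4.83 ± 0.436 CPM (SD, n = 3 each). With limma on log2 FPKM it was 0.63 with a pseudocount of 1 and 1.12 with 0.1, at levels of 0.590 to 1.75 FPKM.

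BTC, a ligand of EGFR and ERBB4, had 1.59, 3.03 and 2.44 CPM in control and 3.64, 2.95 and 3.98 CPM on TKT overexpression. The groups overlapped, since TKT overexpression replicate 2 lay below control replicate 2. Its log2 fold change was 0.58 (standard error 0.24), the smallest of the 5 ligand members tested. It was 0.37 without control replicate 1 and 0.80 without control replicate 2. In limma on log2 FPKM it was 0.31 with a pseudocount of 1 and 0.57 with 0.1.

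NRG1 (neuregulin 1), which binds ERBB3 and ERBB4, had 1.21, 0.724 and 1.04 CPM in control and 2.67, 2.07 and 2.65 CPM on TKT overexpression. All 3 TKT overexpression libraries lay above the controls, on counts of 22 to 99. Its log2 fold change was 1.31 (standard error 0.28). In limma on log2 FPKM it was 0.09 with a pseudocount of 1 and 0.56 with 0.1. In neither was the adjusted p-value of NRG1 under 0.05. Its levels, 0.0340 to 0.125 FPKM, were below a pseudocount of 1 and near or below 0.1, which shrinks both values.

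EREG was the ligand member with the fewest reads. It had 6, 2 and 4 counts in control and 14, 12 and 20 counts on TKT overexpression, that is 0.191, 0.0658 and 0.119 CPM against 0.378, 0.389 and 0.608 CPM. The groups did not overlap, but no control library reached 10 counts, the minimum of the expression filter before scaling by library size, so EREG entered the fit only through its level on TKT overexpression. Its fitted log2 fold change was 1.83 (standard error 0.67). In limma on log2 FPKM it was 0.08 with a pseudocount of 1 and 0.56 with 0.1. Levels of EREG were 0.0116 to 0.108 FPKM, so both pseudocounts shrink its log2 fold change. Summed over libraries, 46 counts stood against 12.

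**Figure D1:**
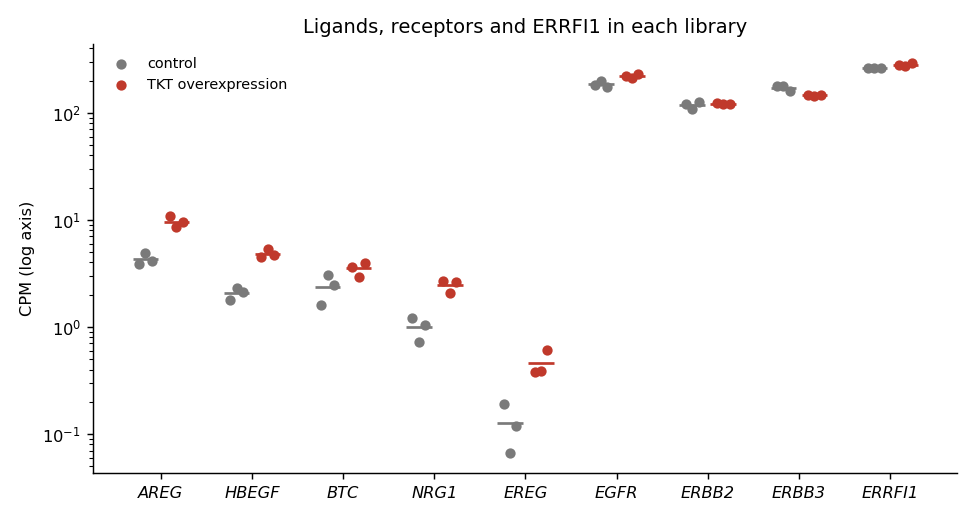
Each dot is the level of a gene in 1 library, in CPM on a log axis, with a line at the mean of each group (n = 3). The red dots of AREG, HBEGF, NRG1 and EREG all lie above the grey control dots, while those of BTC and ERBB2 mix with them.

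EGFR lies at chr7:55019021-55211628 on the plus strand and binds AREG, HBEGF, BTC and EREG. It had 180, 200 and 173 CPM in control and 220, 212 and 229 CPM on TKT overexpression. Its groups did not overlap, and its log2 fold change was 0.26 (standard error 0.05), a 1.19-fold difference. The antisense gene EGFR-AS1 overlaps it with 371 to 458 counts, and since strand-specific counting was not stated, their reads cannot be told apart.

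ERBB3 (chr12:56076799-56103505, plus strand), the receptor for neuregulins, went the other way. It had 177, 177 and 159 CPM in control and 148, 144 and 146 CPM on TKT overexpression. Every TKT overexpression library lay below every control library, and the log2 fold change was -0.23 (standard error 0.05).

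ERBB2 (chr17:39687914-39730426, plus strand) had 122, 109 and 125 CPM in control and 123, 122 and 121 CPM on TKT overexpression. The groups overlapped, and the log2 fold change was 0.04 (standard error 0.05). The opposite-strand genes PGAP3 and MIEN1 overlap it, with 395 to 541 and 736 to 989 counts.

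ERRFI1, an inhibitor that binds the kinase domain of activated ERBB receptors, lies at chr1:8004404-8026308 on the minus strand. It had 262, 261 and 263 CPM in control and 282, 272 and 289 CPM on TKT overexpression. The groups did not overlap, the log2 fold change was 0.10 (standard error 0.04), and the means were 262 ± 1.24 and 281 ± 8.62 CPM (SD, n = 3 each).

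**Figure D2:**
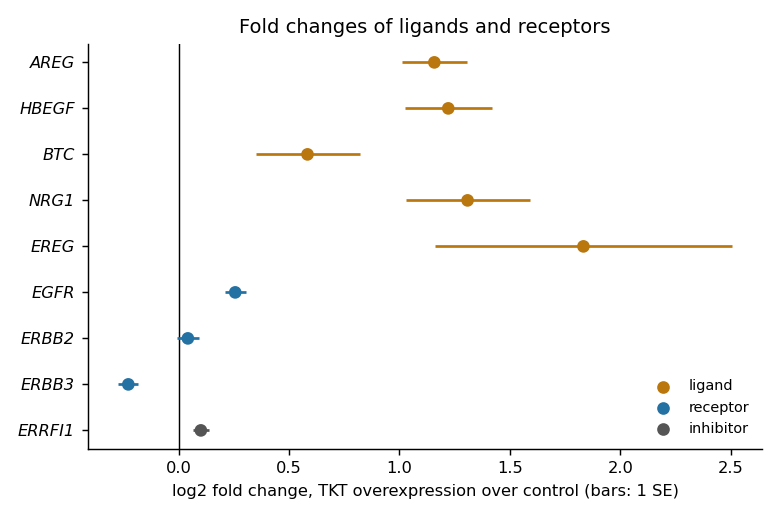
Log2 fold changes of TKT overexpression over control are plotted as dots, with bars of 1 standard error on either side, for ligands, receptors and the inhibitor. Ligand members lie between 0.58 and 1.83 and receptor members between -0.23 and 0.26. The highest value is that of EREG, which entered the fit only through its level on TKT overexpression.

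The ligand members had larger fold changes than the receptor members, a difference that was not tested and that holds for the members as chosen. The median log2 fold change of the 5 ligand members tested was 1.22, that of the 3 receptors 0.04 and that of all 14162 tested genes 8.20e-04. In limma on log2 FPKM the ligand median was 0.31 with a pseudocount of 1 and 0.57 with 0.1. Apart from AREG, the ligand members had at most 1.75 FPKM, where a pseudocount of 1 shrinks the log2 fold changes. Without EREG the ligand median in edgeR was 1.19, an alternative chosen after seeing the data. The 3 tested ligands that were not members had log2 fold changes of -0.14 (EGF), -0.10 (NRG3) and 0.61 (NRG4). With them the ligand median was 0.88, also chosen after seeing the data. The receptor median was -0.01 without control replicate 2. With ERBB4, the other receptor of the family, whose own value was -0.40 (standard error 0.50), the median was -0.0936, again chosen after seeing the data. Of the 9 members tested, 3 were higher at an adjusted p-value under 0.05 and a log2 fold change over 1 (0.699% of all tested genes were). At an adjusted p-value under 0.05 alone, 4 members were higher (5.69% of all tested genes) and 1 was lower (4.94%). BTC joined the higher ones without control replicate 2, whereas in limma on log2 FPKM, with a pseudocount of 1 or of 0.1, only AREG and HBEGF were past 0.05, and with a pseudocount of 1 neither reached the fold threshold as well. Groups did not overlap in 6 members with higher values on TKT overexpression (14.1% of all tested genes) and in 1 with lower values (13.9%). EREG was among the 6, though it entered the fit only through its level on TKT overexpression. These calls come from the contrast used to choose the members, so nothing is read from them.

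Levels between genes were compared per length, in FPKM. In control the order of means was ERRFI1, ERBB3, EGFR, ERBB2, AREG, BTC, HBEGF, NRG1 and EREG. ERRFI1 had 62.1 to 62.7 FPKM in control and 64.1 to 69.9 FPKM on TKT overexpression. EGFR and ERBB2 overlapped in control, as did BTC and HBEGF, and the other neighbours did not. On TKT overexpression EGFR, at 13.1 to 14.5 FPKM, stood above ERBB3, at 12.1 to 12.6 FPKM. HBEGF took the place above BTC there, though their ranges still overlapped, and so did those of NRG1 and EREG. AREG had 2.36 to 3.00 FPKM in control and 5.14 to 6.56 FPKM on TKT overexpression, below EGFR, ERBB2 and ERBB3 in each group and above the other ligand members. ERBB4, not a member, had 0.0294 to 0.0775 FPKM in control and 0.0289 to 0.0402 FPKM on TKT overexpression.

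The summed level of the ligand members was 3.63, 4.97 and 4.16 FPKM in control and 9.61, 8.15 and 9.16 FPKM on TKT overexpression. That sum differed 2.11-fold between groups without overlap. The summed level of the receptor members was 37.9, 38.4 and 36.1 FPKM in control and 38.2, 36.9 and 39.0 FPKM on TKT overexpression, with overlap. There were 8.95 ± 1.36 receptor FPKM for each FPKM of ligand members in control and 4.25 ± 0.274 on TKT overexpression (SD, n = 3 each). AREG made up 61.7 ± 2.89% and 65.0 ± 2.87% of the sum of ligand members. These sums left out EGF, a ligand of EGFR, which had 2.06 to 2.12 FPKM in control. Over all 10 EGF family ligands with a row, an alternative chosen after seeing the data, the sum was 6.77 ± 0.643 FPKM in control and 11.4 ± 0.875 FPKM on TKT overexpression (SD, n = 3 each), a 1.68-fold difference. On that sum there were 5.57 ± 0.507 and 3.36 ± 0.197 receptor FPKM for each ligand FPKM, and AREG made up 38.5 ± 1.60% and 51.3 ± 2.48% of it. EGFR per ERBB3 was 0.748, 0.829 and 0.800 in control and 1.09, 1.08 and 1.15 on TKT overexpression.

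**Figure D3:**
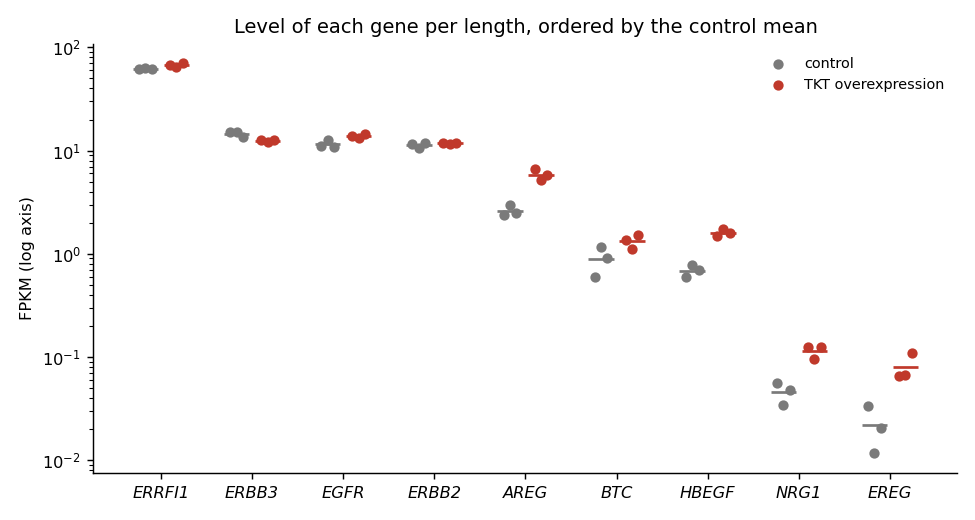
Each dot is the level of a gene in 1 library in FPKM on a log axis, with genes ordered by the control mean and lines at group means (n = 3). The 3 receptors plotted and ERRFI1 lie above the ligand members in both groups.

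The other genes of the pathway came from lists written with earlier results of these data known. Of 85 genes, 79 were tested, and edgeR put 8 past an adjusted p-value of 0.05, with 5 higher and 3 lower. That is 10.1% of them, against 10.6% of all tested genes, and their median log2 fold change was 0.00352. In limma the number was 5 (3 higher) with either pseudocount, a share of 6.33% against 5.84% and 5.83% of all tested genes. It was also 5 without control replicate 1 (3 higher, 6.33% against 6.06%) and without TKT overexpression replicate 3 (3 higher, 6.33% against 7.15%). Without control replicate 3 (6.33% against 7.03%) and without TKT overexpression replicate 2 (6.33% against 8.24%) it was 5 with 2 higher. With the replicate block it was 4 (2 higher), or 5.06% against 4.92%. At a CPM of at least 1 in 3 libraries it was 9 (6 higher), or 12.2% against 12.5%. DESeq2 put 13 of 75 past 0.05 (6 higher), or 17.3% against 13.1% of all genes it gave an adjusted p-value. Without a filter on low counts edgeR put 12 of 84 past it (7 higher), or 14.3% against 7.89%. Without TKT overexpression replicate 1 the number was 8 (4 higher), and the shares were 10.1% and 5.46%.

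Among other ligands and ERBB4, edgeR called none of the 4 tested genes at an adjusted p-value under 0.05, none had an unadjusted p-value under 0.05, and DESeq2 called 0. Their median log2 fold change was -0.12. EGF, the most abundant, had a log2 fold change of -0.14 (adjusted p = 0.421). EPGN, the remaining gene of the cluster on chromosome 4, had 0, 3 and 4 counts in control and 4, 2 and 8 on TKT overexpression, too few to be tested.

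For ligand shedding, 1 of 8 tested genes passed (12.5%, against 10.6% of all tested genes), and it was lower, beside a list median of -0.08 (log2). ADAM15, a membrane metalloprotease and the most abundant of them, had 126, 122 and 135 CPM in control and 105, 114 and 102 CPM on TKT overexpression. The log2 fold change was -0.25 (standard error 0.05, edgeR adjusted p = 0.00219), and its groups did not overlap.

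Among receptor adaptors and effectors, 2 of 28 tested genes passed (7.14%), both higher, and the list median was -0.03 (log2). SHC2, an adaptor of the SHC family, had 23.1, 24.0 and 23.1 CPM in control and 35.7, 36.1 and 34.2 CPM on TKT overexpression. It rose in all 3 TKT overexpression libraries (log2 fold change 0.59, standard error 0.07, edgeR adjusted p = 3.91e-06). STAT3, a transcription factor activated by receptor kinases, had a log2 fold change of 0.16, with an adjusted p of 0.0447 in edgeR, and was past the threshold in 7 of 14 alternatives. SHC1 was the most abundant, with a log2 fold change of -0.10 (adjusted p = 0.0767).

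In the list named for receptor attenuation, 1 of 20 tested genes passed (5%), and the list median was 0.03 (log2). Whether each listed gene lowers or sustains receptor levels in these cells was not tested. LRIG3, of a family of transmembrane proteins, had a log2 fold change of 0.17, with an adjusted p of 0.0439 in edgeR, and was past the threshold in 7 of 14 alternatives. The phosphatase gene PTPN1 was the most abundant, with a log2 fold change of 0.03 (adjusted p = 0.794).

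Among endocytosis and sorting genes, 4 of 19 passed (21.1%, against 10.6% of all tested genes), 2 in each direction, and the list median was 0.00352 (log2). EPS15L1, an endocytic adaptor, had a log2 fold change of 0.25, with an adjusted p of 0.00305 in edgeR. RAB5A, a GTPase of early endosomes, had 0.21 (edgeR adjusted p = 0.0266) and passed in 7 of 14 alternatives. AP2A1, a subunit of the clathrin adaptor, had -0.24 (edgeR adjusted p = 0.00322) and EPN1, an epsin, -0.18 (edgeR adjusted p = 0.00981, past the threshold in 9 of 14 alternatives). HSP90AB1, a chaperone and the most abundant of the list, had -0.08 (adjusted p = 0.146).

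**Figure D4:**
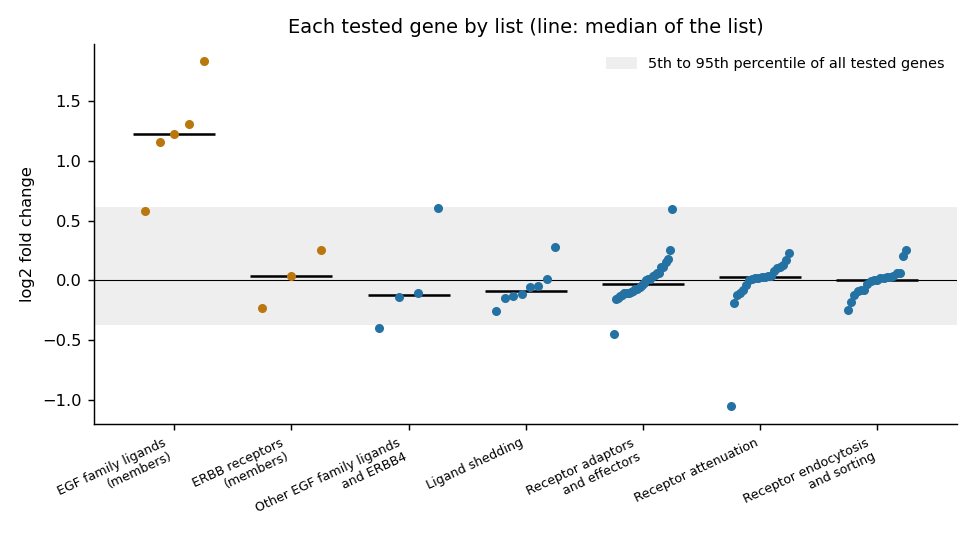
Each dot is the log2 fold change of 1 tested gene, grouped by list, with a line at the median of the list and a grey band from percentile 5 to percentile 95 of all tested genes (-0.36 to 0.61). The ligand members lie at the upper edge of the band or above it, and the other lists lie mostly within it.

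The profiles most like that of AREG over the 6 libraries were sought among the 11279 genes whose mean log2 CPM reached 1. They were CCND1, SOD2, SRRM1, MAFG and MORC4, with Pearson correlations of log2 CPM between 0.993 and 0.995. Among those most like HBEGF were ZFAS1, KAT6A, SLC20A1 and FOSL2, with correlations between 0.992 and 0.999. These values describe 6 libraries in 2 groups, and 250 genes for AREG and 237 for HBEGF had a correlation over 0.95. The log2 fold changes of the 5 genes nearest AREG ran from 0.12 to 0.35, and of the 4 named for HBEGF from 0.19 to 0.54, smaller than the ligands' own.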

How the data were processed

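RNA-seq libraries of 3 TKT overexpression and 3 control samples were analysed. The authors trimmed reads with fastp 0.22.0 and aligned them with HISAT2 2.1.0 to hg38, per the submitters' processing notes, and counted them with featureCounts. They deposited counts per gene symbol without normalization. The deposited FPKM values, a per-length scale, were made by the authors and used only for levels and alternatives. Strand options were not given in the sources used here. Here the counts were tested with the robust quasi-likelihood test of edgeR 4.0.16 under R 4.3.3, after filterByExpr by group at a minimum count of 10 and TMM scaling, with Benjamini-Hochberg adjustment over 14162 genes. Totals lay between 30148788 and 37096156 counts, with a common biological coefficient of variation of 0.113. In members with few counts, counting error limited precision as well. Scripts were tested on simulated counts.

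The members and lists were chosen with earlier results of these data known. Named genes are the members, TKT, in each pathway list the most abundant gene and up to 4 with the largest change at an adjusted p-value under 0.05, the 5 profiles nearest AREG and HBEGF (1 of them is not reported here), and the most abundant gene of other cell type lists. Genes named outside this rule are markers near 0 counts or without a row, and overlapping and cluster genes. Also outside it, and chosen after their values were seen, are FGB, HNF4A, NRG3, NRG4 and ERBB4. Alternatives were DESeq2 1.42.0, other scalings and filters, the replicate block, each replicate left out, and limma 3.58.1 on log2(FPKM + 1) and log2(FPKM + 0.1). DESeq2 was run on the genes that passed the edgeR filter. At the thresholds the study states for DESeq2 it called 86 genes, fewer than the study reports. The study's other settings were not known here. The protein stretches planned for display were not used here.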

Additional observations from a re-analysis of the deposited data

How the results depend on the processing

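The 14 alternatives kept the direction of AREG, HBEGF, BTC, NRG1, EGFR, ERBB3 and ERRFI1, and that of EREG in the 13 that tested it. ERBB2 was below 0 without control replicate 2 (-0.01). With the replicate block, 67 genes were called against 103, 697 against 1505 at an adjusted p-value under 0.05, and 4 pathway genes against 8 (2 of them higher, against 5). Deviations from group means correlated between -0.0252 and 0.0156 for equal replicate numbers. Control replicate 1 and control replicate 2 correlated best with another number. With 3 libraries per group and correlations this near to 0, these values cannot decide whether the replicate numbers pair the samples. In limma on log2(FPKM + 1), 13 genes were called, 827 were past 0.05, 0 members were called against 3, 2 against 5 members and 5 pathway genes (3 higher) were past 0.05, and the ligand median was 0.31. On log2(FPKM + 0.1) these were 66 and 826 genes, 2 members called, 2 members and 5 pathway genes (3 higher) past 0.05, and 0.57. With 0.1, NRG1 and EREG (each 0.56) were the only ligand members to move by more than the spread between replicates. Their FPKM levels were near or below that pseudocount. The members no longer past 0.05 in either were NRG1, EGFR and ERBB3, and the receptors kept their size (0.24 and -0.21, then 0.26 and -0.22); why they lost the call was not tested. Over all tested EGF family ligands, chosen after seeing the data, the ligand median was 0.88, and with ERBB4, likewise, the receptor median was -0.0936. Without a filter 160 genes were called, and DESeq2 put 13 pathway genes past 0.05. With 1 replicate left out, 74 to 128 genes were called, 791 to 1586 were past 0.05, and pathway genes numbered 5 to 9, with 2 to 4 higher. Other causes were not tested. EREG had 2 to 20 counts and NRG1 had 22 to 99, and whether depth limited them was not tested.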
